A study of Mus musculus with 6 samples.

Results

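The circadian clock of mammalian cells is a transcriptional feedback loop. The transcription factor BMAL1, encoded by Arntl, pairs with CLOCK and activates genes through E-box elements, and the products of some of these genes then shut the loop down or drive its outputs. PER proteins, together with CRY proteins, inhibit BMAL1 and CLOCK directly, while the nuclear receptors REV-ERBα and REV-ERBβ, encoded by Nr1d1 and Nr1d2, repress Arntl through ROR response elements (RREs). DBP and TEF are PAR bZIP activators that bind D-box elements and carry the rhythm to output genes. In a tissue with a running clock, the mRNAs of Nr1d1, Dbp and the Per genes peak at about the opposite phase to Arntl, so a single collection gives 1 point on each curve.

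The genes described are 10 rows of the deposited table, found by gene name among 25251: Nr1d1, Nr1d2, Ciart, Dbp, Tef, Per1, Per2, Per3, Arntl and Bhlhe40. They were selected on their levels and fold changes between the same irinotecan and control libraries, so those differences are a description and carry no test of their own. RNA sequencing gave 3 tumour samples from mice given irinotecan (CPT-11, a topoisomerase I inhibitor prodrug; 25 mg/kg into the peritoneum every 4 days) and 3 from mice given solvent, called control here, with no word on whether the samples of a group came from separate mice. In both groups, wild-type CT26 mouse colon carcinoma cells had been injected under the skin of BALB/c mice and had grown to 100 mm3 before randomization. The sources used here do not give the hour of day of collection, the lighting schedule, the interval from the last dose or the age of the mice, so the phase of the clock in each tumour is unknown.

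Libraries held 14001328 to 15195613 recovered reads with irinotecan and 13940650 to 15656894 in control. Irinotecan replicate 1 stood apart: its log2 values correlated with the other libraries at 0.932 to 0.941, against 0.975 to 0.985 among the other 5, and it had reads for 19040 genes, against 20571 to 21426. It was short of GC-rich genes, where 563 genes above 60% GC lay at a median of -0.76 (log2) relative to their control means. Results for the 10 genes are therefore given with and without it where it moves them. Fold changes of other genes use all 6 libraries. Of the epithelial markers, Epcam had at most 2.89 normalized counts in any library and Vil1 at most 3.08. Krt8 had 37.0 to 149.3 with irinotecan and 50.5 to 80.4 in control, while Krt18 had 46.2 to 125.2 and 123.0 to 142.2. Their log2 fold changes were 0.52 and -0.61, and those of Cdh1 and Lgals4 were 0.18 and -0.26. Relative to the control means of Krt8, Krt18, Cdh1 and Lgals4, irinotecan replicate 1 lay at -0.79, -1.47, 1.08 and -1.16 (log2). For Cdh1, irinotecan replicates 2 and 3 lay at 0.06 and -0.61, and for Lgals4 at -0.03 and 0.43. The signs of Cdh1 and Lgals4 thus rested on irinotecan replicate 1. For Krt18, irinotecan replicates 2 and 3 lay at -0.05 and -0.32, and for Krt8 both lay above every control. In bulk tumour RNA, fewer cells of a type and less RNA per cell cannot be told apart.

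Promoter windows are shown first, since elements of the feedback loop can lie in them. RefSeq windows on GRCm38.p6, running from 250 bases before to 50 bases after the transcription start, were matched for 8 of the 10 genes (11 windows, with a pair each for Tef, Per1 and Arntl), and Per2 and Bhlhe40 had no entry. They were searched on both strands for the E-box CACGTG, the E′-box CACGTT, the D-boxes TTATGTAA and TTACGTAA, and the RRE core TAGGTCA. Of 32851 windows in the table, 7.15% held the E-box, 4.68% the E′-box, 1.06% a D-box and 2.61% the RRE core. The 4 windows below hold each kind of element, written 5′ to 3′ along the gene with the matches in capitals. The E-box and E′-box are the letters that BMAL1 and CLOCK bind, the D-box is that of DBP and TEF, and the RRE core is that of the REV-ERB and ROR receptors.
Ciart, chr3:95882179-95882478, minus strand, E-boxes: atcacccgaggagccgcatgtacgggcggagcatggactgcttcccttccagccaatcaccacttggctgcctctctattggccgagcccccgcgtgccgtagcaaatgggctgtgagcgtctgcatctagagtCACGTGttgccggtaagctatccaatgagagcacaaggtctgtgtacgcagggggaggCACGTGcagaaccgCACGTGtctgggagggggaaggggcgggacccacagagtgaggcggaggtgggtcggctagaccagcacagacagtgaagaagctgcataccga
Nr1d1, chr11:98775328-98775627, minus strand, E′-box: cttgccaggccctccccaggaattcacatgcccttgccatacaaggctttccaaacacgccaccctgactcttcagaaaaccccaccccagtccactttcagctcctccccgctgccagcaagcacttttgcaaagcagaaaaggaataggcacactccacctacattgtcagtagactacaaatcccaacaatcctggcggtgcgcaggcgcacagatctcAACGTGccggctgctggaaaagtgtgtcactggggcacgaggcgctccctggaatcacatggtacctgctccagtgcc
Per3, chr4:151044616-151044915, minus strand, D-boxes: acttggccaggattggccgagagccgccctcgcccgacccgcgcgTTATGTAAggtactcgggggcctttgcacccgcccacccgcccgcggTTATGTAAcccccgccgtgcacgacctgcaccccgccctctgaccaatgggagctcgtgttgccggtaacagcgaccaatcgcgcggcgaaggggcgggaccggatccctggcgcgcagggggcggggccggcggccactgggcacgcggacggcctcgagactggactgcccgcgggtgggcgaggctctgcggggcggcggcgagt
Arntl, second start, chr7:113207261-113207560, plus strand, RRE core: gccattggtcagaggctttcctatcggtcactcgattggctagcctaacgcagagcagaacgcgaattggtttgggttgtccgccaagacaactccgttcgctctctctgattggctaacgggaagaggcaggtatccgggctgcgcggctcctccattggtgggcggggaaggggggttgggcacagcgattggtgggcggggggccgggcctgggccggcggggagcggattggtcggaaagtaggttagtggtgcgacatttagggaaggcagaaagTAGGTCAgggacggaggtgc

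Ciart carried 3 E-boxes, at positions -116, -58 and -44 from its start, the most of any of the 11 windows. Both Tef windows and the upstream Per1 window had 1 E-box each, Nr1d1 had 1 E′-box at -28, Per3 had 2 D-boxes at -205 and -158, and the second Arntl window had the RRE core at 31 bases past the start. No listed element was found in the windows of Nr1d2 or Dbp, in the second Per1 window or in the first Arntl window, which says only that these letters are not within these bases. A match is a description of the sequence and does not show that a factor was bound.

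**Figure D1:**
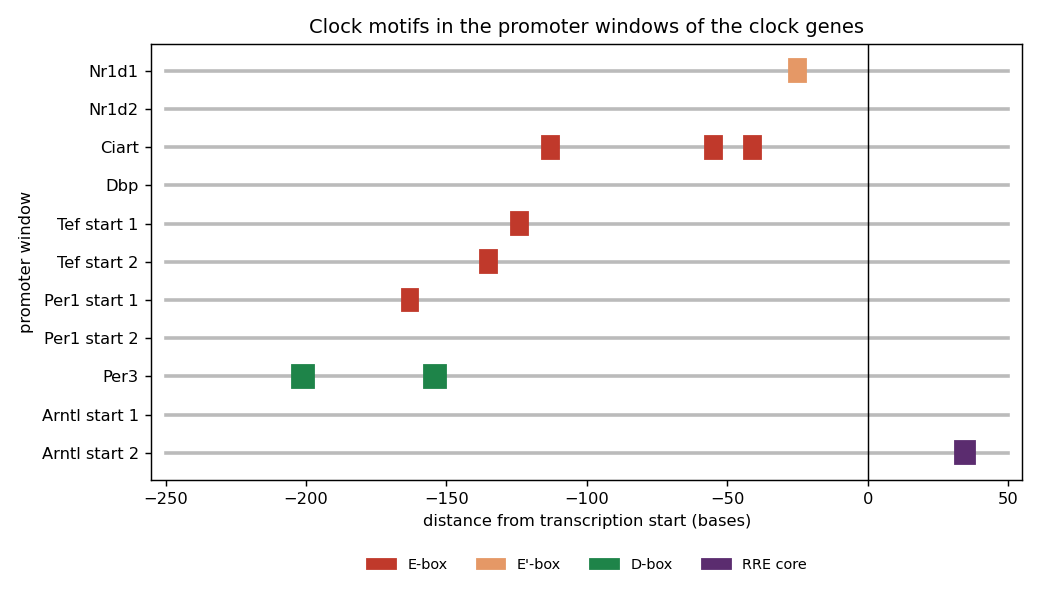
Positions of E-box, E′-box, D-box and RRE core matches in the 11 promoter windows of 8 clock genes, in bases from the transcription start (black line). The 3 E-boxes of Ciart, the 2 D-boxes of Per3 and the RRE core of Arntl at 31 bases past the start stand out.

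With irinotecan, the values of 2 of the 10 clock genes, Nr1d1 and Ciart, lay below every control, those of the other 8 overlapped, and Arntl lay close to control. Nr1d1 and Ciart stood at 0.51 and 0.52 times their control level (from the log2 means), Dbp was below every control in 2 of 3 irinotecan libraries and spread widely, Tef and the Per genes were not lower as a group, and Arntl differed by -0.09 on the log2 scale. Over all 14639 genes tested, 7.89% had irinotecan libraries all below control and 6.68% all above, against 2 and 0 of the 10. Limma, with Benjamini-Hochberg adjustment over all genes, called 0 of the 10, where 0% of all genes were called, and 2 of the 10 had an unadjusted p under 0.05, against 844 of 14639 genes. The median log2 fold change was -0.20 over the 10 genes and -0.01 over all genes, and it was negative for 7 of the 10, against 51.8% of all genes.

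**Figure D2:**
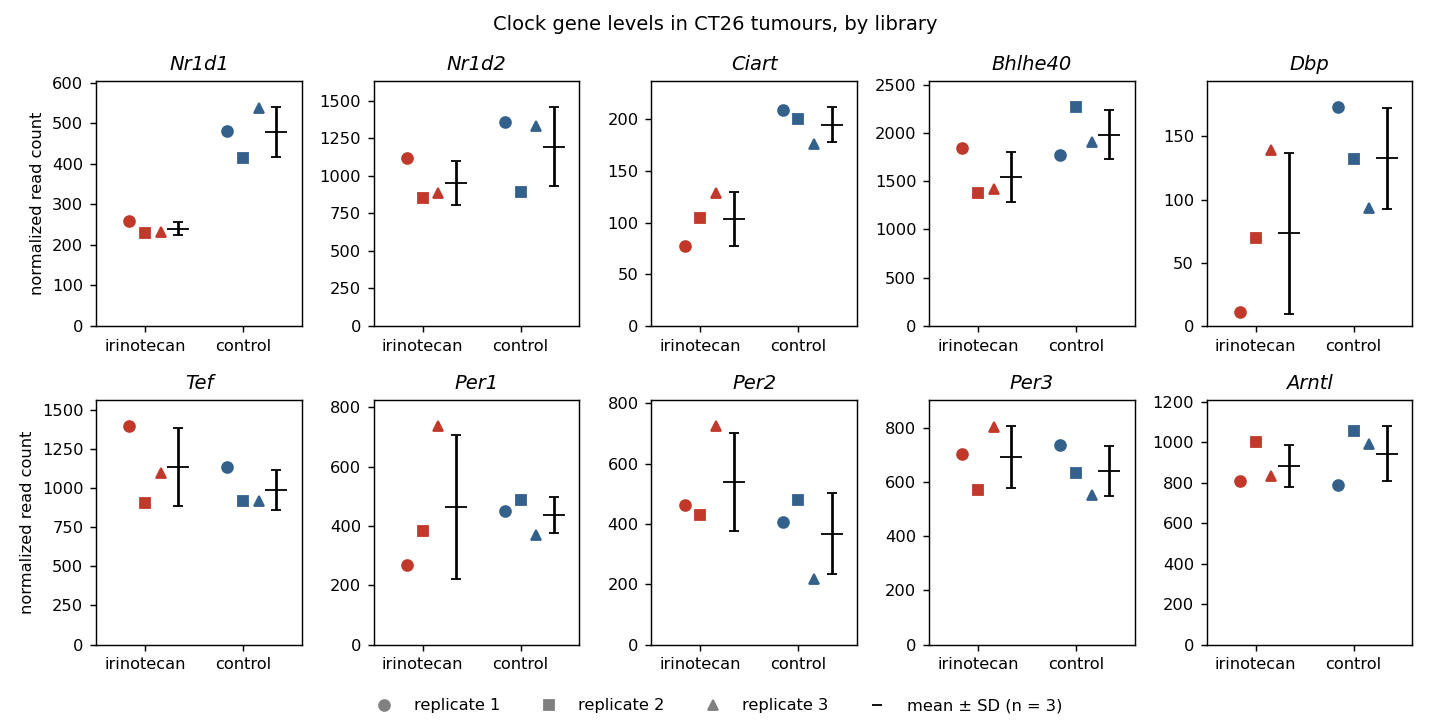
Normalized read counts of the 10 clock genes in each library, irinotecan left and control right, with symbols for replicates 1 to 3 and the mean ± SD (n = 3). The groups separate for Nr1d1 (229.2 to 258.8 against 414.0 to 537.4) and Ciart (77.0 to 128.7 against 176.2 to 208.5), while the Arntl values interleave.

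Arntl (ENSMUSG00000055116, chr7:113207465-113314126, plus strand), the activator at the top of the loop and the gene that the REV-ERB receptors repress, had 810.1, 1002 and 834.2 normalized counts with irinotecan and 790.0, 1053 and 988.6 in control. The groups interleaved, and the lowest and the highest of the 6 values were both controls. The mean was 882.0 ± 104.3 with irinotecan and 943.8 ± 137.1 in control (SD, n = 3 each), so the log2 fold change was -0.09, with an SE of 0.16. It ranged from -0.22 without control replicate 1 to 0.0094 with library weights estimated from the data.

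Nr1d1 (ENSMUSG00000020889, chr11:98767932-98775333, minus strand), which encodes REV-ERBα, had 258.8, 229.2 and 232.1 normalized counts with irinotecan and 481.5, 414.0 and 537.4 in control. The irinotecan values lay within 1.13-fold of each other, and the highest of them was well below the lowest control. Irinotecan minus control came to -0.98 on the log2 scale (SE 0.16), and 3.01% of all genes tested had one at least as negative. Nr1d1 had a log2 value of -0.99 and an adjusted p of 0.00381 in the authors' deposited table, and it was the only one of the 10 among the genes called lower there, 19 of the 13984 with an adjusted p below 1 (0.136%). Without irinotecan replicate 1 the limma value was -1.04 (SE 0.15), and over 20 alternatives it ran from -1.08 to -0.80. The value of -0.80 was that with the trend on GC content and length removed.

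The last exons of Nr1d1 overlap those of Thra, a thyroid hormone receptor gene on the opposite strand, over 263 of its 3077 exonic bases in GENCODE M21, and the sources used here do not say whether counting used strand. Thra had 363.5, 412.2 and 391.2 normalized counts with irinotecan and 394.5, 446.4 and 362.1 in control. These values overlapped between groups, unlike those of Nr1d1.

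The Nr1d1 paralogue Nr1d2 (ENSMUSG00000021775, chr14:18204054-18239127, minus strand), which encodes REV-ERBβ, had 1119, 849.5 and 883.8 normalized counts with irinotecan and 1356, 890.8 and 1333 in control. Irinotecan replicates 2 and 3 lay just below control replicate 2, and replicate 1 lay above it. Its fold change was -0.31 on the log2 scale (SE 0.20), or -0.51 without control replicate 2, -0.44 without irinotecan replicate 1, -0.22 without control replicate 3 and -0.21 without control replicate 1. The ratio of Nr1d1 to Nr1d2 within a library does not depend on the library factor. It was 0.23, 0.27 and 0.26 with irinotecan and 0.35, 0.46 and 0.40 in control, so that the groups did not overlap. Nr1d1 levels alone already did not overlap, and the share of all gene pairs whose ratio does so was not computed.

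Ciart (ENSMUSG00000038550, chr3:95878503-95882251, minus strand) encodes a repressor that binds BMAL1. It had 77.0, 104.0 and 128.7 normalized counts with irinotecan and 208.5, 199.7 and 176.2 in control. All irinotecan values were below all controls, with irinotecan replicate 1 the lowest. On the log2 scale the difference was -0.94 (SE 0.24), or -0.74 (SE 0.19) without irinotecan replicate 1, and its adjusted p in the authors' deposited table was 0.170. Ciart, with the 3 E-boxes printed above, thus had lower values, as did Nr1d1, with 1 E′-box and no E-box in its window. Tef, with 1 E-box in each window, and Per1, with 1 in its upstream window, had values that overlapped. A link between these elements and the levels was not tested.

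Bhlhe40 (ENSMUSG00000030103, chr6:108660629-108666925, plus strand) encodes DEC1, a repressor that competes for E-boxes and is also induced by hypoxia and cytokines. It had 1845, 1374 and 1419 normalized counts with irinotecan and 1773, 2266 and 1911 in control. Irinotecan replicates 2 and 3 lay below every control, and replicate 1 lay above control replicate 1. The log2 fold change was -0.36 (SE 0.16), and without irinotecan replicate 1 it was -0.50 (SE 0.12), where DESeq2 on recovered reads gave an adjusted p of 0.0231 and limma one of 0.154. In a list of 11 hypoxia-induced genes, 4 had a positive and 7 a negative log2 fold change, with a median of -0.07. Its single genes ran from -0.88 (Egln3) to 0.39 (Car9). The summed level of that list was 63780, 40610 and 34990 normalized counts with irinotecan and 40250, 53990 and 41810 in control. The abundant genes Pgk1 and Ldha held much of this sum, with 20800 and 23090 in irinotecan replicate 1. The part of this list in the Bhlhe40 values was not tested.

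**Figure D3:**
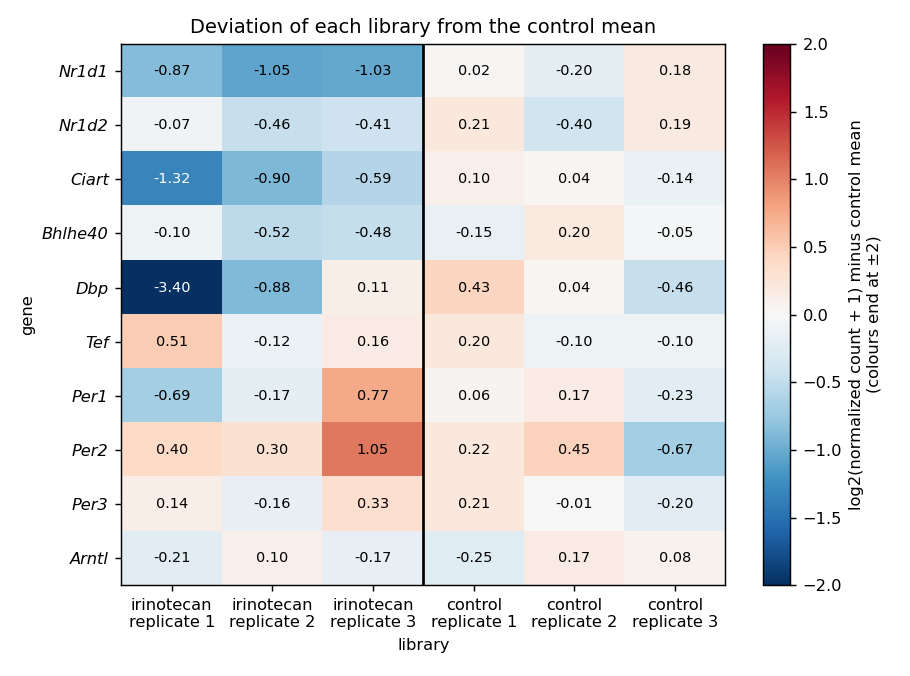
Log2 difference of each library from the control mean for the 10 clock genes (rows) in 6 libraries (columns, irinotecan left of control); colours end at ±2 and each cell prints its value. Nr1d1 and Ciart are at -0.59 or lower in all 3 irinotecan libraries, and Nr1d2 and Bhlhe40 are also below 0 in all 3. Dbp is at -3.40 in irinotecan replicate 1, and Per1, Per2 and Per3 are at 0.77, 1.05 and 0.33 in irinotecan replicate 3.

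For all 3 PER repressors the groups overlapped. Per1 (ENSMUSG00000020893, chr11:69095217-69109960, plus strand), which also responds to glucocorticoids and cAMP, had 269.0, 384.3 and 737.9 normalized counts with irinotecan and 451.5, 487.2 and 370.9 in control. The irinotecan libraries held both the lowest and the highest of the 6 values, a 2.74-fold range against 1.31-fold in control. Its log2 fold change was -0.03 (SE 0.33), with a sign that turned in 11 of 20 alternatives and values from -0.43 (limma without irinotecan replicate 3) to 0.36 (edgeR without irinotecan replicate 1). Per1 has 59.3% GC and lay at -0.69 (log2) relative to its control mean in irinotecan replicate 1. With the trend on GC content and length removed, its log2 fold change was 0.14 (SE 0.25). The part of GC content in the Per1 values was not tested.

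Per2 (ENSMUSG00000055866, chr1:91415982-91459324, minus strand), a core repressor that partners with CRY proteins, had 462.1, 430.5 and 725.7 normalized counts with irinotecan and 406.7, 478.9 and 218.8 in control. Control replicate 3 was the lowest and irinotecan replicate 3 the highest, and the other 4 libraries lay close together. Its log2 fold change, 0.59 (SE 0.32), was the largest positive one among the 10, and it was 0.25 without control replicate 3 and 0.35 without irinotecan replicate 3. Per3 (ENSMUSG00000028957, chr4:151003652-151044665, minus strand), the least essential of the PER genes for rhythm in mice, had 702.3, 572.1 and 802.7 normalized counts with irinotecan and 738.5, 634.6 and 553.9 in control, with a log2 fold change of 0.10 (SE 0.18). Its groups overlapped, with values from -0.0092 without irinotecan replicate 3 to 0.23 without irinotecan replicate 2, and its promoter window is the one with both D-boxes.

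Of the PAR bZIP genes, Dbp (ENSMUSG00000059824, chr7:45705088-45710203, plus strand) had 11.3, 69.3 and 138.9 normalized counts with irinotecan and 173.0, 131.7 and 93.0 in control. Irinotecan replicate 3 lay within the control range, replicate 2 below it, and replicate 1, with 11 reads, far below. The log2 fold change was -1.39 (SE 0.77), and it was -0.38 (SE 0.32) without irinotecan replicate 1 and -2.14 without irinotecan replicate 3. With all 6 libraries it was -0.85 by edgeR on recovered reads, -0.62 with library weights and -0.86 in the authors' deposited table. Mean counts were 73.2 ± 63.9 with irinotecan and 132.5 ± 40.0 in control (SD, n = 3 each), whereas limma compares mean log2 levels. Dbp has 58.1% GC and lay in irinotecan replicate 1 at -3.40 (log2) relative to its control mean. The 2102 tested genes between 56 and 60% GC lay there at a median of -0.42. Single genes of that band differed widely in that library, with C1qc (56.6% GC) at -3.24 and Slc16a3 (58.7% GC) at -0.18. The part of GC content in the Dbp values was not tested. With the trend on GC content and length removed, the Dbp log2 fold change was -1.16 (SE 0.62).

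Dbp shares 539 of its 2993 exonic bases with Sphk2, a sphingosine kinase gene on the opposite strand. Sphk2 had 191.0, 314.0 and 336.5 normalized counts with irinotecan and 420.7, 342.9 and 334.1 in control, and it was also lowest in irinotecan replicate 1. Tef (ENSMUSG00000022389, chr15:81802421-81826863, plus strand), the other PAR bZIP gene, had 1400, 904.4 and 1099 normalized counts with irinotecan and 1135, 916.9 and 917.0 in control. Its groups overlapped, with a log2 fold change of 0.18 (SE 0.19), or 0.02 without irinotecan replicate 1, 0.33 without irinotecan replicate 2 and -0.01 with estimated library weights. Dbp and Tef, which bind the same element, thus had log2 fold changes of opposite sign with all 6 libraries, and that difference was not tested.

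The REV-ERB and D-box genes were then set against Arntl within each library, as the mean log2 level of Nr1d1, Nr1d2, Dbp and Tef minus the log2 level of Arntl. This value was -1.61, -1.59 and -0.98 with irinotecan and -0.40, -1.19 and -0.99 in control. Irinotecan replicates 1 and 2 were below all controls, and irinotecan replicate 3 lay between control replicate 3 and control replicate 1. The mean was -1.39 ± 0.35 with irinotecan and -0.86 ± 0.41 in control (SD, n = 3 each), a difference of -0.53 that was -0.30 without control replicate 1. No p is given, since the genes were chosen with results known.

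The 4 genes did not contribute alike. For the REV-ERB genes alone, the mean log2 level minus that of Arntl was -0.59, -1.18 and -0.88 with irinotecan and 0.03, -0.79 and -0.22 in control, a difference of -0.55, or -0.70 without irinotecan replicate 1. For Dbp and Tef alone the values were -2.63, -1.99 and -1.09 with irinotecan and -0.83, -1.59 and -1.75 in control, a difference of -0.51 that was -0.15 without irinotecan replicate 1. By single genes the difference was -0.89 for Nr1d1, -1.29 for Dbp (-0.35 without irinotecan replicate 1) and 0.27 for Tef (0.05 without irinotecan replicate 1). With Ciart and the 3 Per genes added to the 4, it was -0.25, or -0.16 without irinotecan replicate 1.

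**Figure D4:**
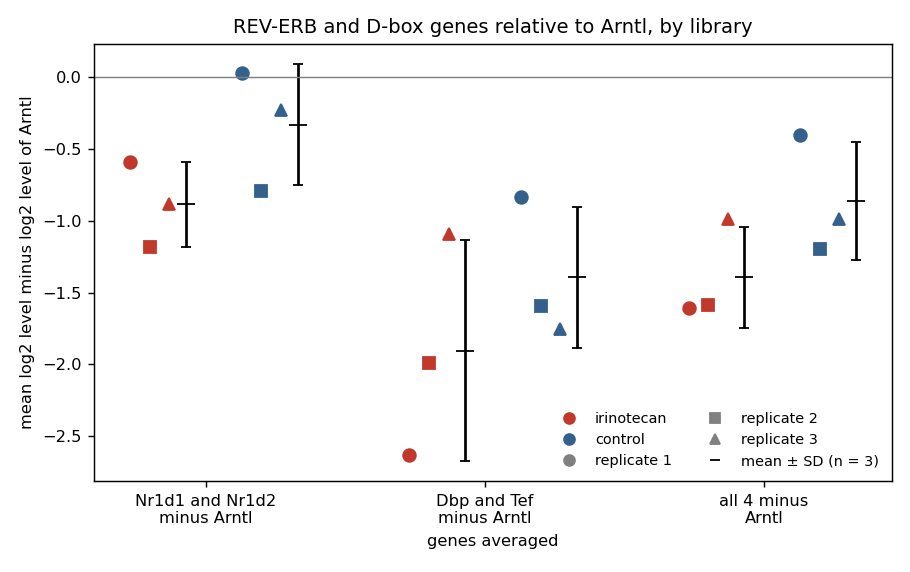
Mean log2 level of the named genes minus the log2 level of Arntl in each library (irinotecan red, left; control blue, right; symbols for replicates; mean ± SD, n = 3). For Nr1d1 and Nr1d2 the values run from -1.18 to -0.59 with irinotecan and from -0.79 to 0.03 in control, and irinotecan replicate 1 gives the lowest value for Dbp and Tef, -2.63.

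As a plain ratio of normalized counts, which does not depend on the library factor, Nr1d1 stood at 0.32, 0.23 and 0.28 of Arntl with irinotecan and at 0.61, 0.39 and 0.54 in control. The ratio of Ciart to Arntl was 0.095, 0.104 and 0.154 with irinotecan and 0.264, 0.190 and 0.178 in control. In both ratios every irinotecan library was below every control. The ratios of the other 7 genes to Arntl overlapped between groups. Nr1d1 and Ciart are also the genes whose levels alone did not overlap, so the ratios restate that difference. The share of all genes whose ratio to Arntl separates the groups was not computed.

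Within each group, the libraries differed in which clock genes were high. Among the irinotecan libraries, replicate 3 held the highest value of 5 genes, Ciart, Dbp, Per1, Per2 and Per3, and the lowest of none. Among the controls, replicate 3 held the lowest value of those same 5 genes and the highest of Nr1d1. Tsc22d3, a glucocorticoid-induced clock output, had 768.0, 928.5 and 1699 normalized counts with irinotecan and 1098, 1066 and 803.7 in control. It too was highest in irinotecan replicate 3, and it was named after its values were seen. Of the other glucocorticoid-induced genes listed, Mt2 and the barely detected Zbtb16 were also highest there. Fkbp5, Sgk1 and Errfi1 were highest in irinotecan replicate 1, and Mt1 in irinotecan replicate 2.

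Markers of skeletal muscle, a tissue with a strong clock that lies next to subcutaneous tumours, were also high in irinotecan replicate 3. Their summed level over 9 genes was 154.0, 229.2 and 917.3 normalized counts with irinotecan and 382.3, 25.1 and 268.3 in control, and all 8 tested had a positive log2 fold change (median 0.93). The defining gene Acta1 was detected in every library, at 10.5 to 410.5, and Ckm and Myh2 were at 0 in irinotecan replicate 1 and control replicate 2. The part of these markers in the clock values was not tested. Adipocyte markers stayed near 0, with a summed level of 5.78 to 8.21 with irinotecan and 8.72 to 11.5 in control over 5 genes.

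Counts per kilobase of the deposited gene length allow the genes to be ranked against each other. With irinotecan the order was Bhlhe40, Nr1d2, Tef, Arntl, Per2, Per1, Nr1d1, Per3, Ciart and Dbp, from 328.6 ± 55.2 to 24.5 ± 21.3 normalized counts per kilobase. In control it was Bhlhe40, Nr1d2, Nr1d1, Tef, Arntl, Ciart, Per1, Per3, Per2 and Dbp, from 421.6 ± 54.0 to 44.3 ± 13.4 (mean ± SD, n = 3 each). Nr1d1 stood at rank 7 with 78.0 ± 5.3 per kilobase with irinotecan, and at rank 3 with 155.2 ± 20.1 in control. Neighbours in either order overlapped within 1 SD, except Bhlhe40 over Nr1d2 in both groups, Per3 over Ciart with irinotecan, and Arntl over Ciart in control.

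Other clock genes, 28 in a list drawn up with earlier results known, did not pass in either direction. Limma called 0 of the 24 tested (0% of all genes were called), 1 had an unadjusted p under 0.05, and DESeq2, edgeR and limma-voom on recovered reads also called 0. The log2 fold change was positive for 15 and negative for 9, with a median of 0.05. The irinotecan libraries lay all below control for 4 of the 24 and all above for 2, where 7.89% and 6.68% of all genes tested did so.

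Among the core genes, Clock, the partner of BMAL1, had 4878, 3103 and 2726 normalized counts with irinotecan and 2502, 2707 and 3372 in control, or 0.28 on the log2 scale (SE 0.23). Its values overlapped, with irinotecan replicate 1 the highest. Relative to its control mean, irinotecan replicates 1 to 3 lay at 0.78, 0.13 and -0.06 (log2). The repressors Cry1 and Cry2 both stood at 0.19 on the log2 scale (SE 0.17 and 0.15). Cry2 had 535.0, 477.7 and 487.5 normalized counts with irinotecan and 456.2, 475.7 and 388.3 in control, narrowly all higher. Bhlhe41, the paralogue of Bhlhe40, stood at 0.11 (SE 0.15) and the D-box repressor Nfil3 at -0.16 (SE 0.19) on the same scale.

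Arntl2, a paralogue of Arntl, had 23.6, 53.9 and 44.6 normalized counts with irinotecan and 56.1, 119.2 and 41.6 in control (log2 fold change -0.75, SE 0.47). Irinotecan replicates 1 to 3 lay at -1.43, -0.27 and -0.54 (log2) relative to its control mean. The RRE activator Rora was low in every library, at 22.3 to 41.1 with irinotecan and 24.1 to 43.0 in control (-0.10, SE 0.38). So was the PAR bZIP gene Hlf, at 3.08 to 29.4 and 9.35 to 19.9 (-0.24, SE 0.76). Hlf lay at -1.93, 0.24 and 0.97 (log2) in irinotecan replicates 1 to 3, so its negative fold change rested on replicate 1. Npas2, a paralogue of Clock, was below the mean count of 10 needed for testing, with at most 3.04 normalized counts. None of the core genes tested passed.

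**Figure D5:**
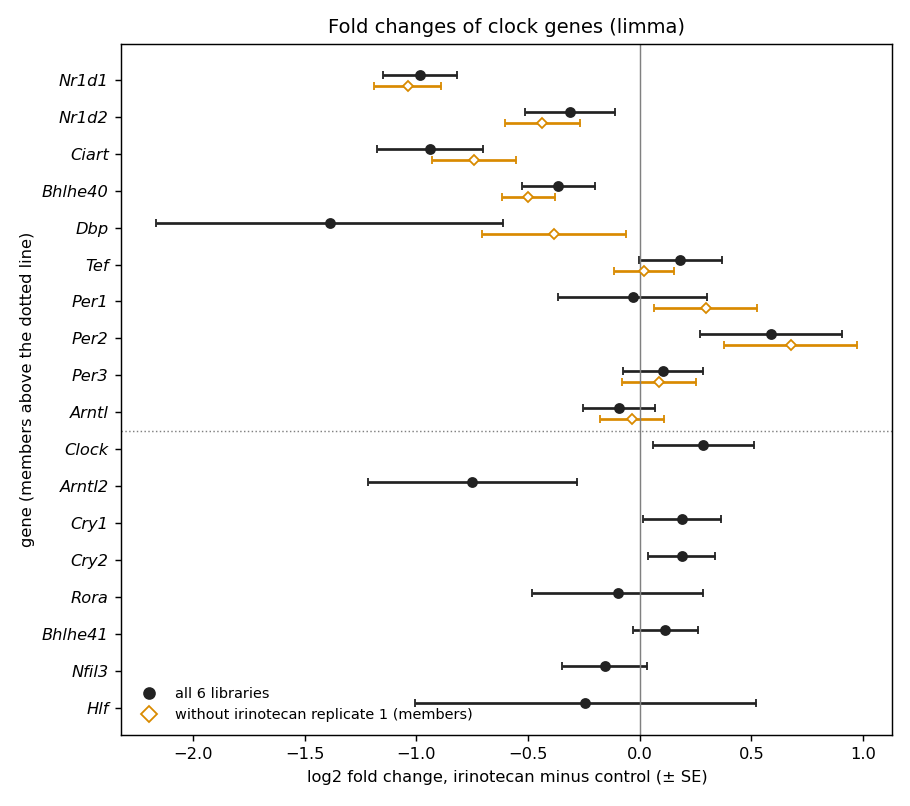
Log2 fold change, irinotecan minus control, with its SE from limma, for the 10 clock genes (above the dotted line) and 8 other core clock genes (below); open diamonds give the 10 genes without irinotecan replicate 1. Nr1d1 stays near -1 in both, whereas Dbp is at -1.39 and -0.38.

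Of the kinases and ubiquitin ligases that set the stability of PER and CRY proteins, the 2 with the smallest unadjusted p were Csnk1e and Btrc. Csnk1e, casein kinase 1 epsilon, had 1036, 1452 and 1418 normalized counts with irinotecan and 1800, 1714 and 1912 in control, all lower, with a log2 fold change of -0.49 (SE 0.16; limma adjusted p = 0.743). Btrc, a ubiquitin ligase subunit, had 508.3, 456.5 and 369.9 with irinotecan and 335.6, 350.3 and 332.1 in control, all higher (0.38, SE 0.17; limma adjusted p = 0.743). Among clock outputs, the 2 with the smallest unadjusted p were the Krüppel-like factors Klf10 (-0.29, SE 0.13) and Klf9 (-0.33, SE 0.17). Klf10 had 1686, 1857 and 1571 normalized counts with irinotecan and 2223, 2056 and 1953 in control. Klf9 had 374.8, 322.7 and 458.1 with irinotecan and 490.8, 466.3 and 480.3 in control. Neither passed, at a limma adjusted p of 0.743 each.

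Gene lists that share an input with Per1 or Bhlhe40 were set beside them. The log2 fold change was positive for 5 of 6 tested glucocorticoid-induced genes (median 0.15) and for 1 of 9 immediate early genes (median -0.52), with 0 called in either list. Endothelial, macrophage and neutrophil markers had mostly negative log2 fold changes, with 0 called in each list. The 7 endothelial markers had a median log2 fold change of -0.62, a summed level of 1445 to 1924 normalized counts with irinotecan against 2227 to 2559 in control, and 6 negative values of 7. The 7 macrophage markers had a median of -0.68 and 7 negative values of 7. Their summed level was 5392, 11730 and 11250 with irinotecan and 14780, 13970 and 12020 in control, with irinotecan replicate 1 far the lowest. Cd68, the median gene, lay at -1.75, -0.07 and -0.22 (log2) relative to its control mean in irinotecan replicates 1 to 3. Mrc1 lay at -1.03, -0.36 and -0.82. C1qa lay at -1.32, 0.11 and 0.40, so its negative fold change rested on irinotecan replicate 1. No endothelial or macrophage marker was at 0 in any library. The 6 neutrophil markers, 5 of them tested, had a median of -1.43 and a summed level of 278.4 to 279.3 against 473.1 to 878.2, with Retnlg at 0 in irinotecan replicate 3. The part of these cell types in the Nr1d1 values was not tested.

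Protein-coding genes with a pattern over the 6 libraries most like that of Nr1d1 were sought among 12439, by the root-mean-square difference of log2 levels centred on each gene's mean. The nearest 5 were Slc26a11 (0.10), Cd163 (0.14), Ptprm (0.15), Fam20a (0.15) and Nid2 (0.15). Slc26a11, an anion transporter gene, had 41.1, 42.4 and 43.6 normalized counts with irinotecan and 79.5, 66.9 and 90.1 in control. Cd163, a scavenger receptor of macrophages, had 179.7, 151.2 and 182.4 with irinotecan and 425.4, 288.6 and 405.7 in control. For all 5 the irinotecan libraries lay below the controls, which the search for likeness to Nr1d1 favours. Nearest to Arntl were Dnajb2 (0.04), Slc16a3 (0.04), Tmem39a (0.06), Rnpc3 (0.06) and Cldnd1 (0.07), each with overlapping groups. The 10 genes and the other clock genes were left out of this search.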

How the data were processed

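The authors deposited 1 table of 25251 genes on GRCm38. As the authors deposited it, the signal in each library column is a normalized read count per gene, divided by 1 factor per library, per the file headers and the values: within each library every value was a whole multiple of the smallest non-zero one (100% of values, tolerance 1e-06), so whole reads were recovered. The authors' log2 fold changes and p-values are in the same deposited table, per the file headers. DESeq2 1.20.0, featureCounts 1.5.0-p3, HISAT2 2.0.5, fastp and CASAVA are named in the submitters' processing notes; the sources used here give neither strand setting nor annotation release. Labels list 3 samples per group (the design text mentions duplicates) and do not say whether mice were separate, so the p-values cover spread among samples that may be technical.

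The main test was limma 3.58.1 (R 4.3.3; mean-variance trend, group only, two-sided) on log2(normalized count + 1) for the 14639 genes with a mean of at least 10, with Benjamini-Hochberg adjustment over all of them at 0.05. The 1 added to each count understates changes of low genes. Alternatives were quantile and TMM scaling, pseudocounts of 0.5 and 10, no filter, library weights, removal of GC and length trends (mgcv 1.9.3), the replicate block, each library left out, an adjusted p under 0.1, and edgeR 4.0.16, DESeq2 1.42.0 and limma-voom on recovered reads; edgeR and DESeq2 without irinotecan replicate 1 and single-gene arms were chosen after seeing the data. Tests were first run on simulated counts, which held no library short of GC-rich genes, and no result here rests on that run. Depth bounds counting error only.

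The members and lists were chosen with earlier results of these data known. Genes named are all members, tested core clock genes, the 2 with the smallest p in the kinase and output lists, and the 5 nearest patterns to Nr1d1 and to Arntl. Outside this rule, Thra and Sphk2 were named because they overlap members, and Npas2 as an untested core gene. Tsc22d3, the other glucocorticoid-induced genes, single hypoxia-induced genes and single cell type markers were named after their values were seen. Gene overlaps and GC content came from GENCODE M21 (GC for 99.87% of tested genes), promoter sequences from RefSeq, GRCm38.p6.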

Additional observations from a re-analysis of the deposited data

How the results depend on the processing

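With all 6 libraries limma called 0 genes in each direction, with 844 at an unadjusted p under 0.05. DESeq2 called 29 higher and 23 lower, estimated library weights 30 and 22, and DESeq2 without irinotecan replicate 1 81 and 83. Without irinotecan replicate 1, limma and edgeR called 2 higher and 0 lower; leaving out single libraries gave 0 to 2 higher and 0 lower in limma. Quantile or TMM scaling, other pseudocounts, no filter, the GC and length trend, edgeR, limma-voom and a threshold of 0.1 gave 0 in both directions. Nr1d1 was called lower by DESeq2 (adjusted p = 0.000643), with library weights (0.0095) and by DESeq2 without irinotecan replicate 1 (9.33e-06), but not by the other 17 of 20 alternatives; its sign turned in none. The other 9 members were called in none, except Bhlhe40 by DESeq2 without irinotecan replicate 1. The sign of Per1 turned in 11 alternatives, and those of Tef, Per3 and Arntl in 1 each. Other clock genes were called in none. The difference between the 4 output genes and Arntl, -0.53, ran from -0.74 to -0.30 with 1 library left out, was 0.27 for Tef alone and -1.29 for Dbp alone, and was -0.39 with the GC and length trend removed; the cause of these shifts was not tested.

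Replicate numbers are shared by the groups in the labels, but same-numbered libraries did not deviate together (correlations of deviations -0.11, -0.01 and -0.21), so the numbers were not treated as pairs. With the replicate block, limma called 0 higher and 0 lower, 0 other clock genes, and the difference stayed at -0.53. With 3 libraries per group, SEs of the members' log2 fold changes ran from 0.16 (Arntl) to 0.77 (Dbp), and Dbp rested on 11 reads in 1 library.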
